A study of Mus musculus with 6 samples.

Results

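Basophils, mast cells and eosinophils are granulocytes of type 2 immunity that, like neutrophils and monocytes, arise from bone marrow progenitors. The 10 genes described here were chosen by name as their markers: Mcpt8, Prss34, Cpa3, Fcer1a, Ms4a2, Hdc, Prg2, Epx, Gata2 and Kit. Not all of these genes are confined to such cells. All 10 were found among the 55359 genes of the count table, which lists them by Ensembl identifier (ENSMUSG00000022157 for Mcpt8 and ENSMUSG00000005672 for Kit, for example), and all 10 were among the 11190 that passed the filter on low counts and were tested.

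The study compared 2 groups of 3 RNA-seq libraries from mouse myeloid-derived suppressor cells (MDSCs), which are immature myeloid cells that restrain T cells. In both groups, bone marrow of C57BL/6 mice, whose age is not given in the labels, was cultured for 4 days with GM-CSF and IL-6 at 40 ng/ml each, and polymorphonuclear MDSCs were then isolated with a magnetic-bead kit. One group received mitochondrial DNA (mtDNA), 250 ng/ml, delivered with a lipid reagent. The other was left blank, and whether it received the reagent is not stated, so DNA and reagent cannot be told apart. RNA was taken after 12 h. Nothing in the labels ties the libraries to different mice or culture dishes. Each p-value therefore rests on how much these 6 libraries vary, and that variation may be technical only.

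Library totals ranged from 4018360 to 4911103 counts, so 1 read was worth 0.204 to 0.249 CPM, the unit of reads scaled to library size. As a check of the treatment, Rsad2, an interferon-induced antiviral gene, went from 10.5 ± 5.98 to 657 ± 93.5 CPM (SD, n = 3 libraries a group), and all 9 interferon-stimulated genes listed rose (median log2 fold change 4.99). Markers of monocytes were read beside those of neutrophils. Ly6g, the surface antigen that defines polymorphonuclear MDSCs in the mouse, had 5.17 CPM per kb of exon in blank cells. The neutrophil gene S100a8 had 2450 and the monocyte receptor gene Csf1r had 247. Levels differed widely within both lists. Among neutrophil genes S100a9 had 3480, Mpo 126 and Cxcr2 14.2, and among monocyte genes Lyz2 had 7850 and Ccr2 51.2. These values therefore do not rank the 2 cell types. The purity after isolation is not given in the labels, and in bulk RNA fewer cells of a type and less RNA per cell cannot be told apart.

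Basophils and mast cells carry the high-affinity receptor for IgE, whose ligation by antigen releases histamine and proteases from preformed granules. The receptor's alpha chain is encoded by Fcer1a and its beta chain by Ms4a2. Mcpt8 and Prss34 encode serine proteases of mouse basophils, Cpa3 a carboxypeptidase of mast cell and basophil granules, and Hdc the enzyme that makes histamine. Prg2 and Epx encode major basic protein and eosinophil peroxidase of the eosinophil granule. Gata2 encodes a zinc finger transcription factor of stem cells, basophils and mast cells that binds GATA motifs, and Kit the receptor for stem cell factor, carried by progenitors and mast cells. GM-CSF shares its beta receptor chain with interleukin 3 and interleukin 5, the growth factors of basophils and eosinophils.

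To show the regulatory sequence of genes of this set that did and did not pass the test, 250 bases are printed for 5 of them. They are the bases before the first listed start site, 5′ to 3′ on the gene's strand, from RefSeq's annotation of GRCm38.p6. The 2 genes that passed, Mcpt8 and Kit, are set beside 3 genes of basophils and mast cells that did not. The counts were made on GRCm39, and the sequences were matched by gene symbol. Mcpt8 lies at chr14:56085198-56085447 (minus strand), Prss34 at chr17:25298144-25298393 (plus strand), Cpa3 at chr3:20242182-20242431 (minus strand), Ms4a2 at chr19:11623720-11623969 (minus strand) and Kit at chr5:75574737-75574986 (plus strand). Capitals mark matches to the GATA motif, searched on both strands as AGATAA, with T also allowed as the first letter and G as the last.
Mcpt8: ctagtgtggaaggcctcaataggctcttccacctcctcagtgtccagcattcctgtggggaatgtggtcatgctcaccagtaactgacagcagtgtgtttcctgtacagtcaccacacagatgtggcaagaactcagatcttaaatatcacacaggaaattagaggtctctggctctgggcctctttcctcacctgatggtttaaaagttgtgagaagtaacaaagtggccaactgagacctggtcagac
Prss34: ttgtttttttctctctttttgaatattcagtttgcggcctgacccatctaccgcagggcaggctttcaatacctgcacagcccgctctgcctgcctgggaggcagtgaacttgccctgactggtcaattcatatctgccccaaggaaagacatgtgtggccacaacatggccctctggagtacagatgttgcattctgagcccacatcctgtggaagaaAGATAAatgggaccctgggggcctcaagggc
Cpa3: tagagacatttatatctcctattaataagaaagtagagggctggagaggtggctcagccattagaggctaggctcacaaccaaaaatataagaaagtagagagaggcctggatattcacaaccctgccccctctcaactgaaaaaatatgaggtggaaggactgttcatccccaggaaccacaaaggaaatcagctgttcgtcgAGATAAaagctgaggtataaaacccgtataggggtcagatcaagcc
Ms4a2: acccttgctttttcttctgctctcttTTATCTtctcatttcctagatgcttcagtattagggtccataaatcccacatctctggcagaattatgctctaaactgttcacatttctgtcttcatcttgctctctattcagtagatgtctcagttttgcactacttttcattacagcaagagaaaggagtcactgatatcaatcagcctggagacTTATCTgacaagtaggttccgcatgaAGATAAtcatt
Kit: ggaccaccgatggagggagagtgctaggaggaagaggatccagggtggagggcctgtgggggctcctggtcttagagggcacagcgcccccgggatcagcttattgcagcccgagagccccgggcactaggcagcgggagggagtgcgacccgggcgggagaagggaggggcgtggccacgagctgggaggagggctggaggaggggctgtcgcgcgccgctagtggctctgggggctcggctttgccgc

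A GATA match was present before 5 of the 9 genes with a listed promoter: Prss34, Cpa3, Fcer1a, Ms4a2 and Hdc. Of 27025 promoters of this length, 27.1% held one. Counted from the start site, the match lay at -31 to -26 in Prss34 and at -46 to -41 in Cpa3, and Ms4a2 had 3 matches, at -224 to -219, -37 to -32 and -11 to -6. These letters were in none of the printed windows of Mcpt8 and Kit. They were also absent before Epx and Gata2, which did not pass the test and are not printed. The 3 printed genes that did not pass all hold a match, so the printed set does not show how matches go with the test. Kit and Gata2 have 2 listed start sites each, and for every gene only the first listed was searched. The STAT binding motif TTCNNNGAA, on either strand, occurred before 0 of the 9 genes and in 7.18% of all promoters. A match is a description of sequence only.

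All 10 genes were read in every library, with at least 16 reads each, and together they made up 0.0329% to 0.0348% of all counts. After transfection Mcpt8 rose 1.2-fold and Kit fell to 0.741 of its blank level. The other 8 genes did not pass the test. Among them Cpa3 and Hdc had an unadjusted edgeR p of 0.0271 and 0.0371, and an adjusted p of 0.111 and 0.137. The share of all tested genes with an unadjusted p under 0.05 was not counted. Mcpt8 and Kit, 2 of 10 genes (20%), stand beside 17.8% of all tested genes that passed, 11.9% higher and 5.98% lower. The share of members that passed was thus near the background. Of all called genes 66.5% were higher under TMM, 39.2% under upper-quartile factors, 26.8% under library totals and 81.7% in DESeq2. The median log2 fold change of the 10 genes was 0.11, against -0.01 for all tested genes. Values of CPM below are scaled by TMM factors, and calls are edgeR quasi-likelihood tests adjusted over all tested genes with a threshold of 0.05.

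**Figure D1:**
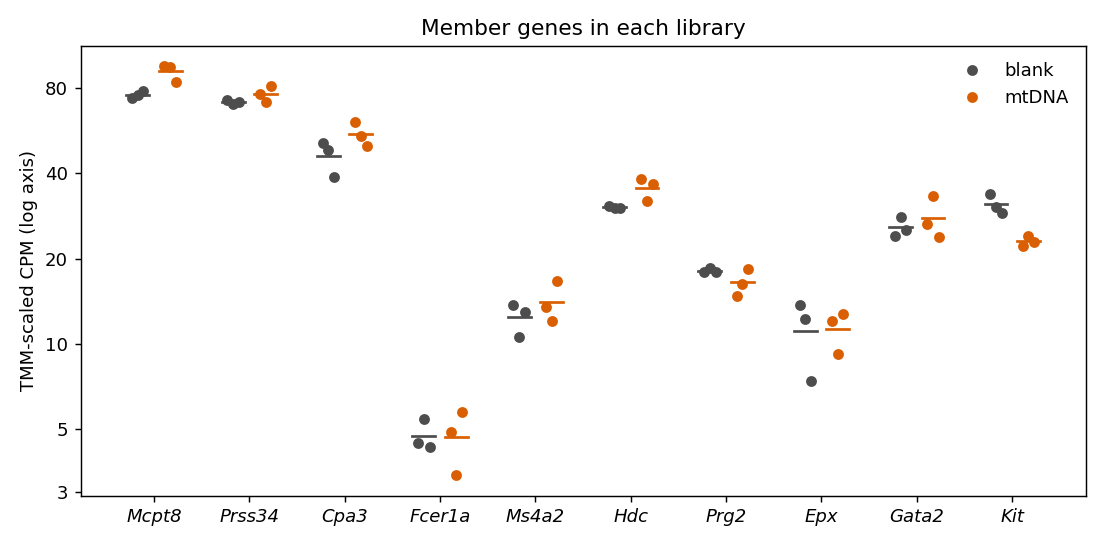
TMM-scaled CPM (log axis) of the 10 genes in each of 3 blank (grey) and 3 mtDNA (orange) libraries, with a bar at each group's mean. The groups are apart for Mcpt8 (blank at most 78.3, mtDNA at least 84.0), Hdc (30.8 and 31.9) and Kit (blank at least 29.1, mtDNA at most 24.0), and overlap for the other 7.

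Mcpt8, the protease of basophils also known as mast cell protease 8, was the most abundant of the 10 per kb of exon. It had 74.2, 75.5 and 78.3 CPM in blank 1, 2 and 3 and 95.6, 95.5 and 84.0 CPM in mtDNA 1, 2 and 3. With TMM scaling every mtDNA library was above every blank library, and mtDNA 3 was the lowest of its group. The log2 fold change was 0.27 ± 0.072 (SE; 95% interval 0.12 to 0.42; edgeR adjusted p = 0.0108). The call ended in DESeq2 (adjusted p = 0.0628), with upper-quartile factors (0.0572), with library totals alone (log2 0.15, adjusted p = 0.123) and without mtDNA 2 (0.0599).

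Prss34, the other basophil protease, had 72.5, 70.3 and 71.6 CPM in blank and 76.1, 71.8 and 81.7 CPM in mtDNA libraries. The groups overlapped, with mtDNA 2 inside the blank range (log2 0.10 ± 0.072, 95% interval -0.05 to 0.25; edgeR adjusted p = 0.389). Its value turned to -0.02 under library totals alone. The ratio of Mcpt8 to Prss34 reads within a library, which no scaling can move, was 1.02, 1.07 and 1.09 in blank and 1.26, 1.33 and 1.03 in mtDNA libraries. It was high in mtDNA 1 and 2 and inside the blank range in mtDNA 3 (exact two-sided permutation p = 0.3, where 0.1 is the smallest that 3 against 3 can give).

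Cpa3, the carboxypeptidase, had 51.3, 48.5 and 38.9 CPM in blank and 60.8, 54.2 and 50.0 CPM in mtDNA libraries. Blank 3 was the lowest of the 6, and mtDNA 3 lay inside the blank range. The log2 fold change of 0.24 ± 0.10 (95% interval 0.03 to 0.45) missed the threshold after adjustment (edgeR adjusted p = 0.111). Without blank 3 it was 0.14 (edgeR adjusted p = 0.433). Cpa3 passed when libraries with adjacent title numbers were blocked (edgeR adjusted p = 0.0432), which the labels do not ask for. In blank cells the spread of Cpa3 was 14.1% of its mean, against 6.94% from counting alone.

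The IgE receptor chains were thinly counted. Fcer1a had 19, 27 and 18 reads in blank and 19, 16 and 27 reads in mtDNA libraries, the fewest of the set. Its groups overlapped in full (log2 -0.03 ± 0.26, 95% interval -0.58 to 0.52, edgeR adjusted p = 0.953). Changes inside that interval were therefore not excluded at this depth. The interval is not adjusted over all tested genes, so it is not the limit of what the test could call. Ms4a2 had 58, 53 and 54 reads in blank and 53, 56 and 79 reads in mtDNA libraries, with mtDNA 3 above the other 5 (log2 0.20 ± 0.17; 95% interval -0.15 to 0.54; edgeR adjusted p = 0.467). Without mtDNA 3 the log2 fold change of Ms4a2 was 0.05. Of its read-length windows 1.64% also occur in other transcripts. Fcer1g, the signalling chain that this receptor shares with other Fc receptors, is described with the pathway below.

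Hdc, histidine decarboxylase, had 30.8, 30.1 and 30.1 CPM in blank and 38.3, 31.9 and 36.6 CPM in mtDNA libraries. The groups did not overlap, by a gap between blank 1 and mtDNA 2. Even so the difference did not pass (log2 0.23 ± 0.10; 95% interval 0.01 to 0.44; edgeR adjusted p = 0.137). Groups that do not overlap were found for 3 of the 10 genes and for 33.5% of all tested genes. The 3 blank libraries differed for Hdc by 1.47% of their mean, less than the 8.59% that counting alone gives. Which cells of the cultures the reads of Hdc came from was not tested.

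Neither eosinophil granule gene passed the test. Prg2 had 17.9, 18.6 and 17.9 CPM in blank and 14.8, 16.3 and 18.4 CPM in mtDNA libraries. Its groups overlapped through mtDNA 3 (log2 -0.13 ± 0.13; 95% interval -0.41 to 0.15; edgeR adjusted p = 0.561). Epx had 13.7, 12.2 and 7.40 CPM in blank and 12.0, 9.21 and 12.7 CPM in mtDNA libraries. Blank 3, with 31 reads of Epx, was below the other 5, and the blank spread of 29.5% stood beside 14.1% from counting alone. The log2 fold change of Epx was 0.02 ± 0.20 (95% interval -0.40 to 0.43; edgeR adjusted p = 0.970), and -0.19 without blank 3. Summed, both genes had 25.3 to 31.5 CPM in blank and 25.5 to 31.1 CPM in mtDNA libraries. Under library totals these ranges were 26.4 to 32.6 and 24.5 to 29.9 CPM, which overlapped with a ratio of means of 0.876.

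Progenitors share Gata2 and Kit with the mast cell and basophil lineages, and of these Kit alone passed the test. Gata2 had 24.0, 28.1 and 25.3 CPM in blank and 26.6, 33.2 and 23.9 CPM in mtDNA libraries. Its highest and its lowest value were both in the mtDNA group (log2 0.11 ± 0.13; 95% interval -0.15 to 0.37; edgeR adjusted p = 0.611). The sign turned without mtDNA 2 (-0.04) and under library totals (-0.01).

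Kit had 144, 152 and 122 reads in blank and 87, 112 and 108 reads in mtDNA libraries. This was 33.9, 30.5 and 29.1 CPM in blank and 22.2, 24.0 and 22.9 CPM in mtDNA libraries. Every mtDNA library was below every blank library, and the mtDNA libraries lay close together. Kit fell by 0.43 ± 0.11 on the log2 scale (95% interval -0.66 to -0.20; edgeR adjusted p = 0.00754). The call held in each omission of a single library (edgeR adjusted p 0.0117 to 0.0441) and under library totals (log2 -0.55), and ended in DESeq2 (log2 -0.43, adjusted p = 0.0617).

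**Figure D2:**
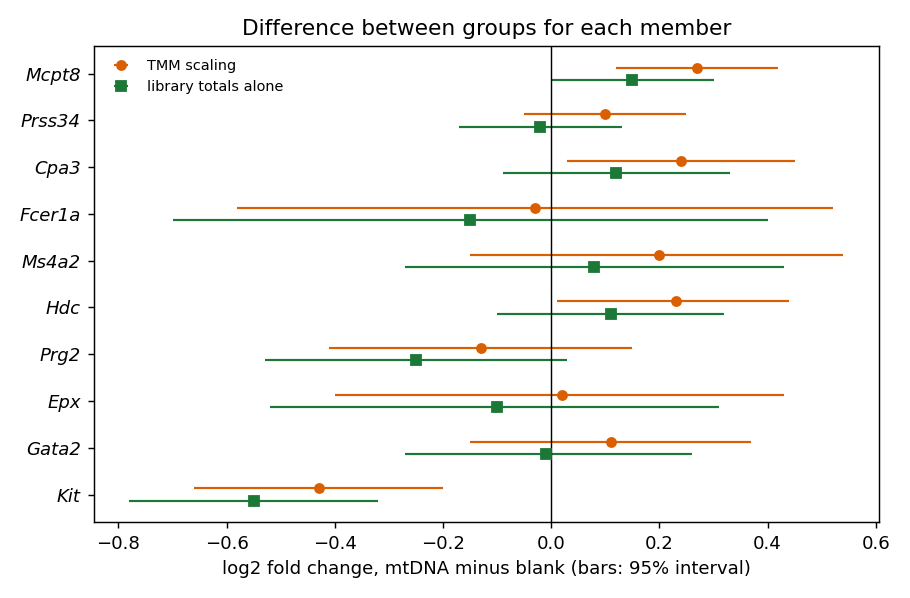
Log2 fold change (mtDNA minus blank) of each gene with its 95% interval from edgeR, under TMM scaling (orange circles) and under library totals alone (green squares). Kit lies below 0 under both scalings (-0.43 and -0.55), and Mcpt8 is at 0.27 and 0.15; every gene shifts down by about the same amount between the scalings.

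Because the scaling moved all genes together, from a median log2 fold change of -0.01 under TMM to -0.13 under library totals, ratios between members within a library were also read. The pairs were chosen after the values were seen. There were 0.661, 0.628 and 0.748 reads of Kit per read of Cpa3 in blank 1, 2 and 3 and 0.366, 0.443 and 0.458 in mtDNA 1, 2 and 3. All mtDNA libraries were below all blank libraries. The same was true of Kit against Gata2, with 1.09 to 1.41 reads of Kit per read of Gata2 in blank and 0.723 to 0.956 in mtDNA libraries. For both ratios the exact two-sided permutation p was 0.1, the smallest possible here. Reads of Mcpt8 per read of Cpa3 stood at 1.67 ± 0.30 in blank libraries and 1.67 ± 0.096 in mtDNA ones (SD, n = 3; exact permutation p = 0.9). Over the 6 ratios computed, none could reach a p below 0.1. Unequal change is all that such a ratio can show.

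**Figure D3:**
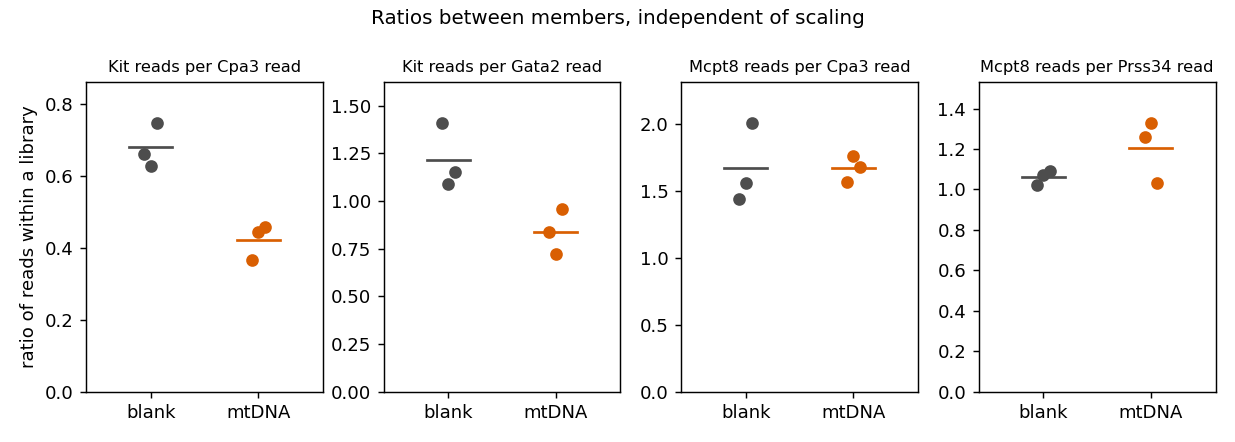
Ratios of reads of 1 member per read of another within each library (linear axes from 0), for 3 blank (grey) and 3 mtDNA (orange) libraries, with bars at the means. Kit per Cpa3 and Kit per Gata2 are lower in all 3 mtDNA libraries (at most 0.458 and 0.956) than in all 3 blank libraries (at least 0.628 and 1.09), while Mcpt8 per Cpa3 and Mcpt8 per Prss34 overlap.

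Summed by role, the basophil proteases Mcpt8 and Prss34 had 146 to 150 CPM in blank and 166 to 172 CPM in mtDNA libraries, a ratio of means of 1.14. Under library totals the ratio was 1.05. Cpa3, Fcer1a, Ms4a2 and Hdc together had 86.2 to 100 CPM in blank and 102 to 118 CPM in mtDNA libraries, a ratio of 1.17. Under library totals that ratio was 1.07 and the groups overlapped. Gata2 and Kit together had 54.4 to 58.5 CPM in blank and 46.8 to 57.2 CPM in mtDNA libraries. Under library totals their sums did not overlap, with 56.7 to 60.9 against 45.0 to 55.1 CPM (ratio 0.824). All 10 genes summed to 327 ± 10.5 CPM in blank and 356 ± 7.43 CPM in mtDNA libraries, but to 340 ± 9.56 and 341 ± 3.33 CPM under library totals. The total of the 10 was thus higher or level by the scaling used. The log2 fold change was below 0 for Kit and above 0 for Mcpt8 under both. That of Mcpt8 under library totals (0.15, edgeR adjusted p = 0.123) was not called.

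Per kb of exon, with the length taken as the union of all annotated exons, the 10 genes fell into 4 that stood apart and 6 that did not. In blank cells Mcpt8 had 76.2 ± 2.12, Prss34 58.6 ± 0.90, Cpa3 30.5 ± 4.29 and Prg2 21.7 ± 0.51 CPM per kb (SD, n = 3). These 4 genes held the same order in all 6 libraries, and their ranges over the 6 did not touch. The remaining 6 were lower and close together, between 4.78 (Gata2) and 3.50 (Kit) CPM per kb in blank cells: Hdc was at 4.75, Fcer1a at 4.74, Ms4a2 at 4.4 and Epx at 4.05. Each of these neighbours overlapped with the next over the 6 libraries, so their order is not resolved. In mtDNA cells Kit stood at 2.58 ± 0.10 CPM per kb, the lowest of the 10 on this scale. The exon union of Kit was 8911 bases, while its longest transcript held 5167 read-length windows. Its place among the 6 lower genes therefore depends on the length used.

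Other markers of the same lineages showed which parts of each program the cultures carried. Genes called in this and later lists stand beside 11.9% called higher and 5.98% called lower of all tested genes. These shares hold for the TMM fit only, with 1327 higher and 669 lower of 11190. Counts of list genes under library totals stand beside 861 higher and 2356 lower. Those with upper-quartile factors stand beside 970 and 1504, and those in DESeq2 beside 967 and 217. Of 11 basophil genes all had reads and 9 could be tested. Beyond the proteases these included Cyp11a1, a steroid-making enzyme that mouse basophils express (45.9 ± 0.87 CPM in blank, 50.4 ± 2.60 in mtDNA), the interleukin 3 receptor chain Il3ra (25.5 ± 1.75 and 27.4 ± 3.46) and the basophil surface receptor Cd200r3 (11.7 ± 1.51 and 12.5 ± 2.57). Mcpt8 was the 1 gene of this list that rose, and none fell (median log2 fold change 0.10). The 9 basophil genes of the list that are not among the 10 summed to 782 to 829 CPM in blank and 802 to 827 CPM in mtDNA libraries, of which the broadly expressed Cd63 made up most (647 ± 18.2 CPM in blank). Under library totals the direction of this sum turned, with 814 to 864 CPM in blank and 772 to 796 CPM in mtDNA libraries, which did not overlap. Type 2 cytokines were near absent, with 5 reads of Il4 and 2 of Il13 over all 6 libraries.

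The mast cell list was of another kind. Of its 16 genes 8 had no read in any library, among them the tryptase Tpsb2, the chymases Cma1 and Mcpt4 and the mast cell receptor Mrgprb2. At these depths 3 counts, taken as the limit for a gene with none, were 0.611 to 0.747 CPM in a library. The tryptase Tpsab1 had 9 reads in blank and 16 in mtDNA libraries. The 14 genes of the list other than Cpa3 and Kit summed to 88.3 to 90.4 CPM in blank and 101 to 112 CPM in mtDNA libraries, most of it Mitf (92.1 to 94.0 and 97.1 to 105 CPM under library totals). Cpa3 and Kit were thus read in cultures in which the defining proteases of mature mast cells were at or near 0. Among the 5 tested genes of the list 1 rose and 1 fell (median log2 fold change 0.22): Kit fell, and Mitf, a transcription factor of mast cells that macrophages also express, had log2 0.22 ± 0.074 (edgeR adjusted p = 0.0396). That call of Mitf ended in 9 of 15 alternatives, among them DESeq2 (adjusted p = 0.182), library totals alone (0.299) and omission of blank 1 (0.0836), blank 2 (0.0532), blank 3 (0.138), mtDNA 1 (0.184) or mtDNA 3 (0.0528).

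Eosinophil genes were present in part. Of 12 genes 7 were tested and none passed in edgeR, with 0 of the 7 at an unadjusted p under 0.05 and a median log2 fold change of 0.04. DESeq2 also called 0. Beside Prg2 and Epx, the eosinophil ribonuclease Ear6 had 11.4 ± 1.13 and 14.1 ± 1.64 CPM, and the surface lectin Siglecf had 7.17 ± 3.12 and 6.04 ± 0.97 CPM. The receptors of mature eosinophils were scarce: Il5ra had 6 and 10 reads and Ccr3 had 3 and 8 reads in blank and mtDNA libraries. Cebpe, a transcription factor of granulocyte maturation shared with neutrophils, had 24.4 ± 4.17 and 25.0 ± 2.38 CPM (edgeR adjusted p = 0.889). Ear2 shares 23.4% of its read-length windows with related ribonuclease genes, so its 14.4 ± 0.87 and 15.9 ± 0.74 CPM are uncertain.

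**Figure D4:**
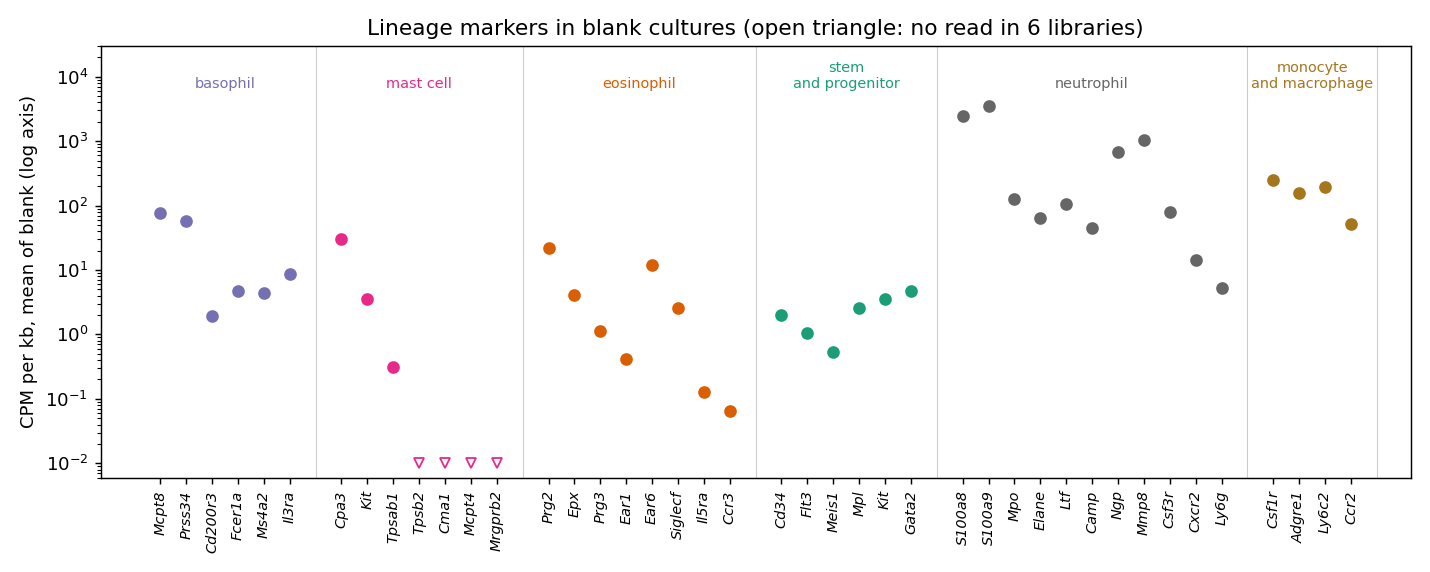
Mean level in blank cultures in CPM per kb of exon (log axis) for markers of 6 cell types, with open triangles, drawn at the foot of the axis, for genes with no read in any of the 6 libraries. Tpsb2, Cma1, Mcpt4 and Mrgprb2 have no read, Mcpt8 stands at 76.2 and Prg2 at 21.7, and S100a8 of neutrophils stands at 2450.

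Of 17 tested genes of IgE receptor signalling, 4 rose and 1 fell (median log2 fold change 0.09), beside 17.8% of all tested genes that passed. Neither receptor-specific chain was among those called. The 4 that rose were Lyn, Fcer1g, the phospholipase Plcg2 and the adaptor Lcp2. In blank cells Lyn had 254, Fcer1g 484, Plcg2 401 and Lcp2 176 CPM, beside 4.73 CPM of Fcer1a. Which cells of the cultures these rises came from was not tested. The kinases Syk, Btk and Fyn and the adaptors Lat, Lat2 and Gab2 did not pass (edgeR adjusted p 0.0604 for Lat2, at least 0.406 for the others). Lyn, the kinase that first phosphorylates the receptor, rose by log2 0.44 ± 0.053 (254 ± 6.45 to 345 ± 13.9 CPM, edgeR adjusted p = 1.5e-06), although 12.1% of its read-length windows also occur in other transcripts. Fcer1g rose by 0.27 ± 0.067 (484 ± 21.7 to 585 ± 73.8 CPM, edgeR adjusted p = 0.00587), which was not called under library totals (adjusted p = 0.0732) or when blank 3 was omitted (0.0611). Plcg1, a phospholipase that raises calcium, fell by 0.50 on the log2 scale (26.0 ± 0.68 to 18.3 ± 0.96 CPM, edgeR adjusted p = 0.00366). Upper-quartile factors left 2 rises in this list, and library totals 1.

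Among 12 tested genes of histamine and lipid mediators 2 rose and 4 fell (median log2 fold change -0.02). Hrh2, the histamine receptor that raises cyclic AMP, rose by log2 0.99 ± 0.14, from 13 ± 1.58 to 26.0 ± 2.99 CPM (edgeR adjusted p = 1.27e-05). Hpgds, which makes prostaglandin D2, rose by 0.45 ± 0.087 (39.7 ± 1.77 to 54.0 ± 3.03 CPM, edgeR adjusted p = 0.000692). Hnmt, which inactivates histamine, fell by 0.52 on the log2 scale (22.6 ± 3.28 to 15.6 ± 1.31 CPM, edgeR adjusted p = 0.0117), which neither DESeq2 (adjusted p = 0.0624) nor the fit lacking blank 3 (0.0777) called. Ptgs1, the constitutive cyclooxygenase, fell by 0.21 (edgeR adjusted p = 0.0280), which ended in DESeq2 (adjusted p = 0.150) and in 5 of the 6 omissions of a library (up to 0.131, without blank 2). DESeq2 called 0 of the 4 falls. Slc18a2, the transporter that loads histamine into granules, had 6.99 ± 1.06 and 8.65 ± 1.2 CPM (edgeR adjusted p = 0.341).

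Of 9 tested genes of growth factors and their receptors 2 fell and none rose (median log2 fold change 0.06). They were Kit and Csf2ra, the alpha chain of the GM-CSF receptor, which fell by 0.14 in log2 units (edgeR adjusted p = 0.0482) and did not pass in 8 of 15 alternatives, DESeq2 among them (adjusted p = 0.115). They include omission of blank 1 (0.122), blank 3 (0.162), mtDNA 1 (0.0761), mtDNA 2 (0.186) or mtDNA 3 (0.0511). Kitl, the ligand of Kit, had 3 reads in blank and 1 in mtDNA libraries. Il1rl1, the interleukin 33 receptor of mast cells and basophils, had 11 ± 2.83 and 9.88 ± 0.65 CPM (edgeR adjusted p = 0.652).

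In the list of Gata2 and its partner transcription factors, 3 of 17 tested genes rose and 2 fell (median log2 fold change 0.06). Lmo2, which bridges GATA factors to other DNA-binding proteins, rose by log2 0.29 ± 0.072 (75.0 ± 4.02 to 91.1 ± 5.34 CPM, edgeR adjusted p = 0.00667). It was not called under library totals (adjusted p = 0.0879) or when mtDNA 2 was omitted (0.0503). Cebpa, a factor of granulocyte and monocyte commitment, fell by 0.32 (140 ± 16.2 to 112 ± 5.17 CPM, edgeR adjusted p = 0.0034). Ldb1, another bridging protein, fell by 0.20 (edgeR adjusted p = 0.0376), which DESeq2 did not call (adjusted p = 0.190), nor any fit lacking 1 library other than blank 2 (0.0521 to 0.149). Gata1, the related factor of mast cells, eosinophils and erythroid cells, had 5.08 ± 0.98 and 6.65 ± 1.62 CPM (edgeR adjusted p = 0.327). Under library totals 0 genes of this list rose and 4 fell.

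Genes of other cell types were read beside the change of Kit. Of 10 tested stem and progenitor genes Kit was the 1 that passed (median log2 fold change -0.08). The 10 genes of that list other than Kit and Gata2 summed to 171 to 191 CPM in blank and 167 to 188 CPM in mtDNA libraries, most of it Procr (107 ± 12.9 and 111 ± 7.37 CPM). Under library totals the sum was 177 to 199 and 161 to 181 CPM, and 2 genes of the list were called lower. Cd34 had 14.3 ± 1.90 and 13.8 ± 0.92 CPM (edgeR adjusted p = 0.847), and Myb 21.8 ± 0.29 and 19.5 ± 1.30 CPM (edgeR adjusted p = 0.409). Sox4, a transcription factor of progenitors, had 8.71 ± 1.37 and 6.51 ± 1.24 CPM (log2 -0.43 ± 0.21, edgeR adjusted p = 0.182), with groups that did not overlap by a narrow gap (blank at least 7.30, mtDNA at most 7.28). Meis1, a stem cell factor, had 5.58 ± 1.29 and 3.39 ± 1.37 CPM (log2 -0.74 ± 0.30, with overlapping groups; edgeR adjusted p = 0.100). Their part in the result of Kit was not tested.

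Beside the rise of Mcpt8, the 10 monocyte and macrophage genes summed to 13200 to 14100 CPM in blank and 14600 to 15600 CPM in mtDNA libraries. Under library totals these ranges overlapped, at 13800 to 14600 and 14100 to 14700 CPM. Most of the sum was the lysozyme gene Lyz2 (10300 ± 411 CPM in blank), which was not called (log2 0.05 ± 0.042). Of the 10 genes 5 rose and none fell: Fcgr1, an Fc receptor gene that interferon induces, by log2 2.54 ± 0.10 and Ly6c2 by 0.85 ± 0.055 (edgeR adjusted p = 2.78e-14 and 4.89e-11), with Cd14, Csf1r and Ccr2 by at most 0.20. Upper-quartile factors, library totals and DESeq2 each called 2 of the 10. The 16 neutrophil genes summed to 8680 to 9100 CPM in blank and 9040 to 9760 CPM in mtDNA libraries. Under library totals the direction turned (8960 to 9470 and 8690 to 9210 CPM). There 4 genes of this list were called lower, against 2 with upper-quartile factors and 0 with TMM. Of all 11190 tested genes 2356, 1504 and 669 were called lower, in the same order of settings. The TMM fit had 1 rise (Ngp, log2 0.17, edgeR adjusted p = 0.0182) that did not pass under library totals (adjusted p = 0.401), upper-quartile factors (0.167) or without blank 1 (0.0553), blank 3 (0.0575) or mtDNA 1 (0.0954). Their part in the result of Mcpt8 was not tested.

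Other cells that bone marrow cultures can hold were read from 3 further lists. Of 6 tested megakaryocyte and erythroid genes 1 rose and none fell (median log2 fold change 0.03), and the list summed to 382 to 412 CPM in blank and 388 to 399 CPM in mtDNA libraries. Under library totals the sums did not overlap, at 397 to 429 and 367 to 384 CPM, and 1 gene of the list was called lower. The gene that rose was the platelet glycoprotein Gp9, with 63 reads in blank and 106 in mtDNA libraries (log2 0.76 ± 0.22, edgeR adjusted p = 0.0197). DESeq2 did not call Gp9 (adjusted p = 0.131), nor did the fits lacking blank 3 (0.0882) or mtDNA 3 (0.0896). Of 7 tested dendritic cell genes the antigen-presenting H2-Aa rose (log2 0.17 ± 0.046, edgeR adjusted p = 0.0146) and none fell (median log2 fold change 0.14). H2-Aa did not pass under upper-quartile factors (adjusted p = 0.173), library totals (0.441) or without blank 3 (0.0831) or mtDNA 1 (0.0559). None of 5 tested T, B and NK cell genes passed in edgeR or DESeq2 (0 at an unadjusted p under 0.05, median log2 fold change 0.05), and the immunoglobulin gene Ighm had 50.2 ± 4.49 and 52.0 ± 5.89 CPM.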

How the data were processed

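Polyadenylated RNA of 6 libraries was sequenced, and the authors deposited whole-number read counts per Ensembl gene; the submitters' processing notes name STAR 2.7.10a and GRCm39, with counting tool and strand setting not given in the sources used here. Symbols and exon lengths came from GENCODE M21 (GRCm38), which named 52083 of 55359 genes, and lengths and shared 75-base windows were computed there. Counts were fitted with edgeR 4.0.16 in R 4.3.3 (filterByExpr, TMM factors 0.947 to 1.05, quasi-likelihood test, Benjamini-Hochberg over 11190 genes, threshold 0.05); the code was tested on simulated counts. No pair of libraries was alike within counting noise (chi-square over its degrees of freedom, 1.54 to 2.28). The fits were repeated with median-ratio factors, upper-quartile factors or library totals, 2 other filters, a robust fit, a block, DESeq2 1.42.0, limma-voom 3.58.1 and leaving out each library.

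The 10 genes and the lists were chosen with earlier results of these data known. From each list up to 2 genes called higher and 2 called lower with the smallest p were named, or the most abundant tested gene where none was called; any other gene named from a list, and the ratios, were chosen after the values were seen.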

Additional observations from a re-analysis of the deposited data

How the results depend on the processing

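Of 150 values of the 10 genes under 15 alternatives, 134 kept their direction and side of the threshold, 5 lost the call, 1 gained it and 10 changed sign. The count of all called genes was 1996, 3217 under library totals (861 higher, 2356 lower), 1184 in DESeq2 (967 higher, 217 lower) and 1507 to 1713 with a library left out; upper-quartile factors gave 970 higher and 1504 lower against 1327 and 669. Of the 10 genes, 0 were higher under upper-quartile factors, library totals and DESeq2, 2 when adjacent title numbers were taken as a block, and 0 to 1 with a library left out; 0 were lower in DESeq2 and 1 in every omission of a library. The sign changed for Prss34 under library totals (-0.02), for Epx under upper-quartile factors (-0.06) and library totals (-0.10), and for Gata2 under library totals (-0.01). With a library left out, log2 values ran from -0.22 to 0.16 for Fcer1a, -0.19 to 0.17 for Epx and -0.04 to 0.22 for Gata2. The cause of these changes was not tested. The groups share no title number, and replicates 1 to 3 in each are only names; neighbouring titles correlated in their deviations at 0.040 to 0.045, each library's highest, and are not taken as pairs. Fcer1a, with 126 reads in all, limits what depth can show.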
